A study of Mus musculus with 18 samples.

Results

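The 9 genes described here encode receptors of the TREM family and proteins by which macrophages take up apoptotic cells: Trem1, Trem2, Treml4, their adaptor Tyrobp, the receptor tyrosine kinases Mertk and Axl, and the secreted proteins Gas6, Pros1 and Mfge8. They were chosen by name, each matched a single entry among the 25926 genes of the expression table, and no expression value entered the choice of rule, although earlier results of these data were known. Expression was measured by RNA-seq in mouse bone marrow-derived macrophages (BMDMs) grown from C57BL/6J marrow over 7 days in M-CSF at 50 ng/mL, which occupied the top compartment of a Transwell (0.4 μm pores) above renal tubular epithelial cells (TECs). In NC, no crystals were added. In COM, the TECs received 100 μg/mL calcium oxalate monohydrate crystals for 24 h. COM+Met had the same crystals on the TECs and 5.0 mM of an agent that the labels write as Met on the BMDMs for 24 h, with PBS in its place in the other groups. All 3 groups therefore shared the M-CSF culture and the coculture with TECs, and each had 6 samples. Nothing in the labels says whether these came from separate mice or cultures, so p-values measure the spread between samples, which may be technical.

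TREM receptors are immunoglobulin-like receptors of myeloid cells. TREM1 and TREM2 have no signalling motif of their own and pair with the membrane adaptor TYROBP (DAP12), whose ITAM recruits the kinase SYK. TREM1 is known for amplifying inflammatory responses, TREM2 for binding lipids and apoptotic cells, and TREML4 for binding dead cells. Uptake of apoptotic cells, or efferocytosis, depends on phosphatidylserine that these cells expose. GAS6 and protein S (Pros1) bind it and bridge the cell to the kinases MERTK and AXL, while MFG-E8 bridges it to αv integrins of the phagocyte.

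Values are FPKM, a fragment count scaled for transcript length and library size. Groups were compared on log2(FPKM + 1) with limma, and a gene was called where the Benjamini-Hochberg adjusted p over all genes tested was below 0.05 and the change was at least 2-fold on that scale. This scale understates the change of low genes such as Gas6 and Pros1. For each member an exact permutation p (two-sided, 924 splits of 12 samples) is given too, whose smallest possible p is 0.00216. The comparisons share samples: NC stands in the comparisons of COM and of COM+Met with NC, and COM in that of COM+Met with COM.

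Some libraries stood apart. NC-5 and NC-6 differed from the other NC samples, and COM-4, COM-5 and above all COM-6 from the other COM samples. Across 10751 genes the correlation of log2 values between samples of a group was 0.938 to 0.995 in NC, 0.888 to 0.995 in COM and 0.989 to 0.995 in COM+Met, and COM-6 reached at most 0.935 with any other COM sample. All 8 macrophage markers were above 1 FPKM on average in every group. Their summed FPKM was 11055 to 15609 in NC, 10593 to 14290 in COM and 12306 to 17041 in COM+Met, most of it from Lyz2 (8531 to 14541 FPKM). Of the 8, Adgre1, Cd14 and Fcgr1 were called higher than NC in both COM and COM+Met, with Adgre1 (F4/80) at 98.6 to 120 FPKM in NC, 518 to 669 FPKM in COM and 493 to 634 FPKM in COM+Met. Of 15 tubular epithelial markers, only Cdh1 exceeded 1 FPKM on average in NC and none did in COM or COM+Met. In bulk RNA, fewer cells of a type and less RNA per cell cannot be told apart.

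Trem1, Treml4 and Trem2 lie in 1 gene cluster on chromosome 17. In GRCm38 (GENCODE M21), the 6 Trem genes of the cluster cover 134409 bp from 48232768 to 48367176, all on the plus strand, in the order Trem1, Trem3, Treml4, Treml2, Trem2 and Treml1. Trem1 spans 48232768 to 48246924, Treml4 48264295 to 48275360 and Trem2 48346401 to 48354147. Tyrobp lies on chromosome 7 at 30413760 to 30417585. The members thus share position only in part, and the 250 bases before the transcription start follow for the members of this cluster, since they are neighbours with unlike profiles, and for Gas6 and Pros1, since these ligands had the largest differences between COM and NC among the 9. The windows are from RefSeq on GRCm38.p6, written 5′ to 3′ along the gene's strand. They are chr17:48232489-48232738 (plus) for Trem1, chr17:48264045-48264294 (plus) for Treml4, chr17:48346151-48346400 (plus) for Trem2, chr8:13494536-13494785 (minus) for Gas6 and chr16:62854057-62854306 (plus) for Pros1. Capitals mark matches to the searched motifs in Trem1, Trem2 and Gas6, and both copies of an exact repeat in Treml4.
Trem1: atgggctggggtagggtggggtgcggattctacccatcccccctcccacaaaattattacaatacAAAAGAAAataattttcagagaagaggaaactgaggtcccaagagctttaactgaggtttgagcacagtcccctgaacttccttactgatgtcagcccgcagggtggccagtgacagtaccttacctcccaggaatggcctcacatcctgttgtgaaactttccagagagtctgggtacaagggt
Treml4: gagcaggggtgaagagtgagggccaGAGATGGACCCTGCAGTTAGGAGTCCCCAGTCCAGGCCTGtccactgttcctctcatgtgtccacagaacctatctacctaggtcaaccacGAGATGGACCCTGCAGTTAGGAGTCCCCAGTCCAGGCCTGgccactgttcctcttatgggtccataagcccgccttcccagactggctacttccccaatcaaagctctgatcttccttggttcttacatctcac
Trem2: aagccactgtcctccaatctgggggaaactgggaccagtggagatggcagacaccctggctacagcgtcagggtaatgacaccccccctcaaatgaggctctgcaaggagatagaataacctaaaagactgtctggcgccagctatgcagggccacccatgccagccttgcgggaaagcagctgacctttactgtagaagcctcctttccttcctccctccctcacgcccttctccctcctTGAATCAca
Gas6: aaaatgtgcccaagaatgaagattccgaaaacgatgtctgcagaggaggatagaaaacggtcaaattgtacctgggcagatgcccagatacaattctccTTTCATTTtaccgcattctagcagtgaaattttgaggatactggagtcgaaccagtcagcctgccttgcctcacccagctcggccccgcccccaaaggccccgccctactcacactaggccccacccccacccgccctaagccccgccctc
Pros1: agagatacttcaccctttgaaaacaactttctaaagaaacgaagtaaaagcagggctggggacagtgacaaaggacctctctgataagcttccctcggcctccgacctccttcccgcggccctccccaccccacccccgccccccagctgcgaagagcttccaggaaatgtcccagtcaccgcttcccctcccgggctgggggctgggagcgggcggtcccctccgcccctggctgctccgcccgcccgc

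Of the 9 members, 8 had a RefSeq promoter entry. These were searched on both strands for AANNGAAA, the core that interferon regulatory factors bind, TGANTCA, an AP-1 type site, the degenerate NF-κB consensus, and GAGGAAGT, an Ets (PU.1) type site. AANNGAAA was found in 2 of 8, at 185 to 178 bases before the start of Trem1 and 151 to 144 bases before that of Gas6, and in 21.3% of all 32851 promoter windows of this length. TGANTCA was found in 1 of 8, Trem2, at 9 to 3 bases before the start, and in 6.75% of all windows. The NF-κB consensus, held by 7.25% of windows, and GAGGAAGT, held by 2.44%, were found in 0 of 8, which says only that these letters are not in these windows. No match overlapped with another. The Treml4 window holds a 40-base exact repeat, at 225 to 186 and again at 134 to 95 bases before the start, while the longest exact repeat was 14 bases in Mertk and 10 bases in Gas6. A match is a description of the sequence and not of binding.

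**Figure D1:**
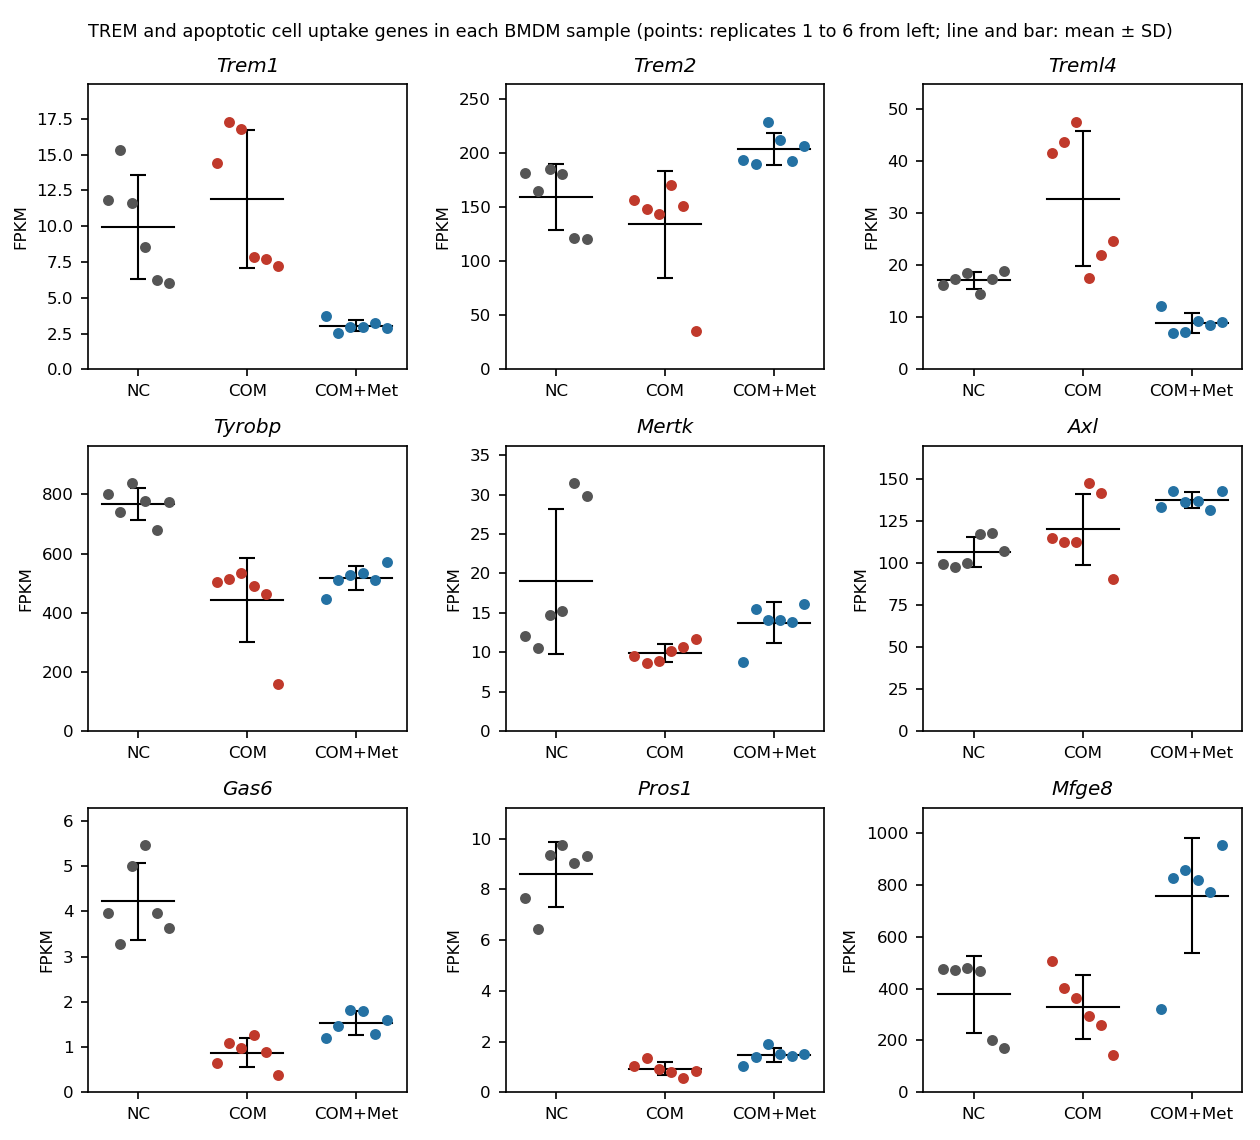
FPKM of the 9 genes in each sample, with replicates 1 to 6 from left to right in each group, the mean as a line and the SD as a bar. Trem1 is lowest in COM+Met, Gas6 and Pros1 are highest in NC, and COM-6 is the lowest COM sample for Trem2 and Tyrobp.

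Between COM and NC, 2 of the 9 genes were called, both lower in COM, the bridging ligands Gas6 and Pros1. Of all 10900 genes tested, 17.7% were called in this comparison, 5.99% higher and 11.7% lower. Between COM+Met and COM, 3 of the 9 were called against 2.22% of 10364 genes: Trem1 and Treml4 fell, where 1.61% of genes were called lower, and Mfge8 rose, where 0.608% were called higher. Between COM+Met and NC, 4 of the 9 were called against 19.3% of 10786 genes, of which Trem1, Gas6 and Pros1 were lower, where 13.6% were called lower, and Mfge8 was higher, where 5.66% were called higher. All 9 passed the filter of a mean of at least 1 FPKM in each comparison. Gas6 and Pros1, however, averaged below 1 FPKM in COM and passed through the group in which they were higher. By adjusted p alone, without the 2-fold limit, 5 of the 9 passed in COM against NC, 5 in COM+Met against COM and 8 in COM+Met against NC, against 53.3%, 13.4% and 75.2% of all genes. The groups did not overlap for 3, 3 and 7 of the 9, against 38.2%, 11.2% and 57.6% of all genes, so that the shares in the comparison of COM with NC were close to the background. The median log2 change over all genes tested was -0.27 in COM against NC, 0.00 in COM+Met against COM and -0.26 in COM+Met against NC.

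**Figure D2:**
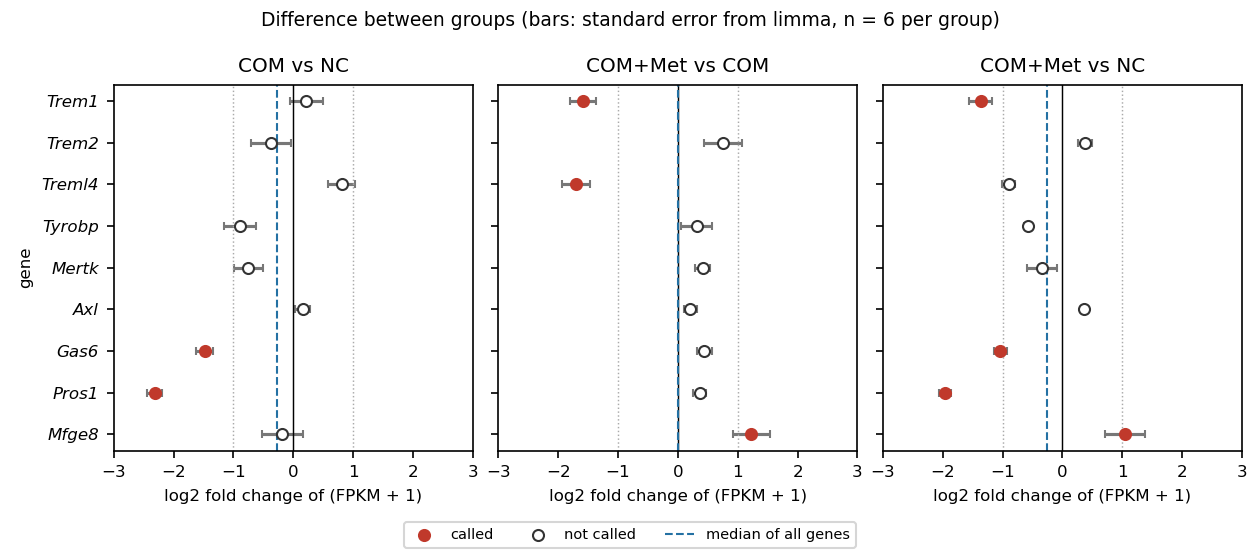
Log2 fold change of FPKM + 1 for the 9 genes in the 3 comparisons, with limma standard errors (n = 6 per group), filled points for called genes, dotted lines at 2-fold and a dashed line at the median of all genes tested. Gas6 and Pros1 are the members called in COM against NC, and Trem1, Treml4 and Mfge8 those called in COM+Met against COM.

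Trem1 was measured at 6.05 to 15.3 FPKM in NC (median 10.1), 7.23 to 17.3 FPKM in COM (median 11.1) and 2.55 to 3.73 FPKM in COM+Met (median 2.97). Every COM+Met sample lay below every sample of the other groups, while NC and COM overlapped. Within NC, NC-5 (6.22 FPKM) and NC-6 (6.05 FPKM) were the lowest, and within COM the samples fell into 14.4 to 17.3 FPKM in COM-1 to COM-3 and 7.23 to 7.86 FPKM in COM-4 to COM-6. The mean was 3.06 ± 0.394 FPKM in COM+Met and 11.9 ± 4.80 FPKM in COM (SD, n = 6 each), a ratio of 0.258. On the log2 scale Trem1 fell by 1.58 (SE 0.21, limma adjusted p = 0.000562; exact permutation p = 0.00216). Against NC (9.92 ± 3.63 FPKM) it fell by 1.36 in COM+Met (SE 0.19, limma adjusted p = 2.25e-05). Between COM and NC its log2 difference was 0.22 (SE 0.27, limma adjusted p = 0.51). It was -0.05 without NC-5 and NC-6, 0.72 without COM-4 to COM-6 (limma adjusted p = 0.0417), 0.43 with sample weights (limma adjusted p = 0.0226) and 0.51 with size factors (limma adjusted p = 0.0936), so its direction was not settled.

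Neutrophils also express Trem1, and markers of these cells differed between the groups. The summed FPKM of 12 such markers was 574 to 613 in COM-1 to COM-3, 177 to 237 in COM-4 to COM-6 and 78.1 to 141 in COM+Met, and all 5 markers tested were called lower in COM+Met than in COM (Camp, Mmp8, Mmp9, S100a8 and S100a9). The order of COM-1 to COM-3, COM-4 to COM-6 and COM+Met was the same in this sum as in Trem1. In NC-5 and NC-6, where Trem1 was lowest in NC, the sum was 536 and 557, against 881 to 1025 in the other NC samples. Most of that gap came from Mmp8, at 97.8 to 102 FPKM in NC-5 and NC-6 and 420 to 482 FPKM in the others. S100a9 was lower there too, at 114 to 127 against 161 to 259 FPKM. S100a8 went the other way, at 281 and 324 FPKM against 189 to 277 FPKM, as did Ltf. In COM against NC, 4 of 8 markers tested were called lower (Cxcr2, Ltf, Ngp and S100a9) and 1 higher (Mmp9), while Trem1 had the log2 difference of 0.22 given above. Of the 12 markers, 8 averaged at least 1 FPKM in NC, 6 in COM and 5 in COM+Met. S100a8 was 276 to 301 FPKM in COM-1 to COM-3, 28.4 to 56.4 FPKM in COM-4 to COM-6 and 15.3 to 39.6 FPKM in COM+Met, whereas 4 markers in COM and 3 in COM+Met were listed at 0 in every sample. The part of these markers in the Trem1 result was not tested.

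Treml4 was the only member of the TREM receptors with a higher mean in COM and a lower mean in COM+Met than in NC, each past an adjusted p of 0.05. Its FPKM was 14.4 to 18.9 in NC (median 17.4), 17.5 to 47.6 in COM (median 33.1) and 6.95 to 12.2 in COM+Met (median 8.78). COM-1 to COM-3 were high, at 41.5 to 47.6 FPKM, whereas COM-4 (17.5 FPKM) lay within the NC range, and COM+Met overlapped with neither group. The mean rose from 17.2 ± 1.63 FPKM in NC to 32.8 ± 12.9 FPKM in COM, by 0.81 on the log2 scale (SE 0.23, limma adjusted p = 0.00935; exact permutation p = 0.00649), short of 2-fold and so not called. It was called, at 1.11, with median-of-ratios size factors and, at 1.32, without COM-4 to COM-6. From COM to COM+Met (8.88 ± 1.88 FPKM) Treml4 fell by 1.70 (SE 0.24, limma adjusted p = 0.000738; exact permutation p = 0.00216), a ratio of means of 0.270. COM+Met also lay below NC, by 0.90 on the log2 scale (SE 0.11, limma adjusted p = 8.99e-06), which is under 2-fold.

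Dendritic cell markers differed between the same COM samples. The summed FPKM of 8 markers was 358 to 388 in COM-1 to COM-3 and 112 to 123 in COM-4 to COM-6, against 47.7 to 184 in NC and 111 to 146 in COM+Met. Nearly all of it came from Itgax (152 to 163 FPKM in COM-1 to COM-3) and Ccr7 (195 to 214 FPKM). No other marker passed 5.72 FPKM in any sample. Among these, Clec9a was 3.72 to 4.72 FPKM in COM-1 to COM-3 and 0.289 to 0.571 FPKM in COM-4 to COM-6, against 1.48 to 5.72 FPKM in NC. NC-5 and NC-6, with sums of 55.0 and 47.7, had Treml4 at 17.5 and 18.9 FPKM, as in the other NC samples. COM-4 to COM-6 and the COM+Met samples overlapped in this sum, whereas their Treml4 values of 17.5 to 24.7 and 6.95 to 12.2 FPKM did not overlap. The part of these markers in the Treml4 result was not tested.

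Trem2 was among the more abundant transcripts, at rank 373 of all genes by mean FPKM in NC, 443 in COM and 272 in COM+Met. It ranged from 120 to 185 FPKM in NC (median 173), from 35.4 to 171 FPKM in COM (median 150) and from 190 to 229 FPKM in COM+Met (median 200). Every COM+Met sample was above every NC and COM sample, and the lowest NC samples were NC-5 and NC-6. Against NC (159 ± 30.4 FPKM), the level of 204 ± 15.0 FPKM in COM+Met was higher by 0.38 on the log2 scale (SE 0.12, limma adjusted p = 0.0104), under 2-fold, and by 0.19 without NC-5 and NC-6. With all 18 samples in the fit the adjusted p was 0.257. Against COM (134 ± 49.4 FPKM) the difference was 0.75 (SE 0.32, limma adjusted p = 0.141), although the groups did not overlap (exact permutation p = 0.00216), which was so for 11.2% of all genes in this comparison. Without COM-6 this difference was 0.40 (limma adjusted p = 0.00149), and without COM-4 to COM-6 it was 0.44 (limma adjusted p = 7.48e-05), again under 2-fold. COM-6 widened the COM spread, with 35.4 FPKM against 144 to 171 FPKM in the other COM samples. Between COM and NC the log2 difference was -0.37 (SE 0.33, limma adjusted p = 0.359), and it was -0.03 without COM-6.

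Tyrobp, the shared adaptor, was the most abundant of the 9 in NC and COM, at rank 51 of all genes in NC. It was measured at 679 to 838 FPKM in NC (median 776), 158 to 535 FPKM in COM (median 495) and 445 to 571 FPKM in COM+Met (median 519). NC lay above both other groups with no overlap, and COM-6 was again far below the other COM samples. The mean fell from 768 ± 54.3 FPKM in NC to 444 ± 142 FPKM in COM, by 0.89 on the log2 scale (SE 0.26, limma adjusted p = 0.0121; exact permutation p = 0.00216), short of 2-fold. Without COM-6 the difference was -0.61, and over 24 alternative fits it ranged from -1.03 to -0.567. Groups did not overlap for 38.2% of all genes in this comparison, in which 53.3% had an adjusted p below 0.05. COM+Met (517 ± 41.6 FPKM) was below NC by 0.57 (SE 0.07, limma adjusted p = 4.85e-06), and its difference from COM was 0.32 (SE 0.26, limma adjusted p = 0.45), or 0.04 without COM-6. Over 23 alternative fits the difference of COM+Met from NC ranged from -0.672 to -0.257, with limma adjusted p up to 0.0318.

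Within a sample, the balance of the receptors can be read as a ratio of FPKM. The ratio of Trem1 to Trem2 was 0.0471 to 0.0926 in NC (median 0.0569), 0.0461 to 0.204 in COM (median 0.104) and 0.0129 to 0.0193 in COM+Met (median 0.0141). COM-6 alone set the upper end in COM, where the other samples were at 0.0461 to 0.117. All COM+Met samples were below all others in this ratio. The ratio of Trem1 to Treml4, in contrast, had nearly equal medians of 0.351 in COM (0.293 to 0.449) and 0.344 in COM+Met (0.306 to 0.408), with 0.609 in NC (0.320 to 0.877), so that both genes differed by a like factor between COM and COM+Met. Trem2 to Tyrobp was 0.155 to 0.233 in NC, 0.224 to 0.349 in COM and 0.362 to 0.435 in COM+Met, the last without overlap with the other groups.

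**Figure D3:**
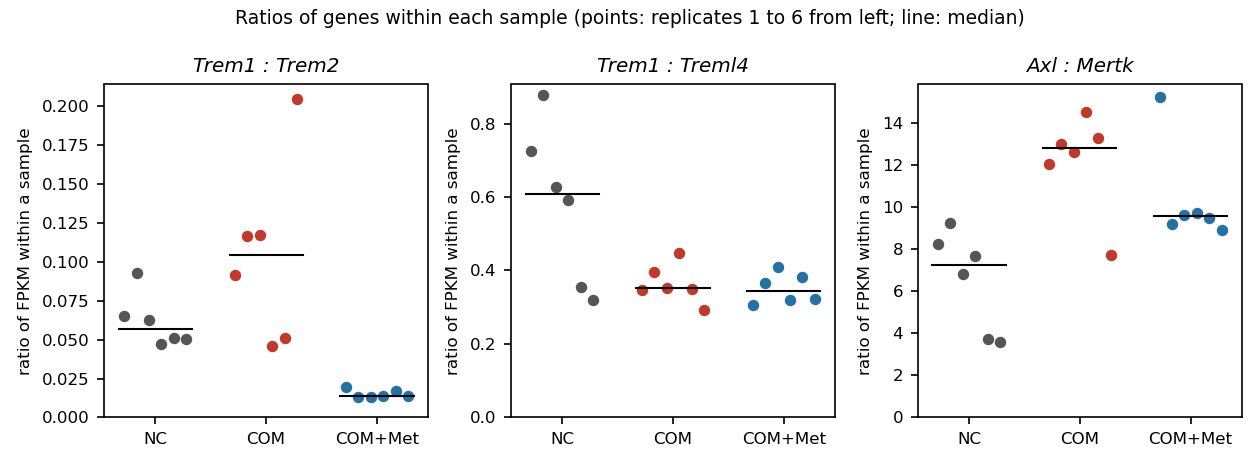
Ratio of FPKM within each sample for Trem1 to Trem2, Trem1 to Treml4 and Axl to Mertk, with replicates 1 to 6 from left to right and a line at the group median. Trem1 to Trem2 lies below 0.02 in every COM+Met sample, and Trem1 to Treml4 has medians of 0.351 in COM and 0.344 in COM+Met.

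The other Trem genes of the chromosome 17 cluster did not share a profile with Trem1 or Trem2. Trem3, which lies between Trem1 and Treml4 and encodes another Tyrobp-paired receptor, was 4.67 ± 0.680 FPKM in NC, 19.9 ± 4.84 FPKM in COM and 9.52 ± 1.26 FPKM in COM+Met. It rose by 1.85 on the log2 scale in COM (limma adjusted p = 2.61e-06) and fell by 0.96 from COM to COM+Met (limma adjusted p = 0.00292), the second under 2-fold. Treml2 rose by 1.26 in COM (limma adjusted p = 0.00546), with means of 2.77 FPKM in NC, 9.38 FPKM in COM and 6.56 FPKM in COM+Met. Treml1, a gene known from platelets, averaged 1.45 FPKM in NC, 0.327 FPKM in COM and 0.280 FPKM in COM+Met and was too low to be tested. B430306N03Rik, a protein-coding gene between Treml2 and Trem2, averaged 23.1 FPKM in NC, 33.7 FPKM in COM and 23.6 FPKM in COM+Met. Its log2 difference was 0.47 in COM against NC (limma adjusted p = 0.0448) and -0.44 in COM+Met against COM (limma adjusted p = 0.125).

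**Figure D4:**
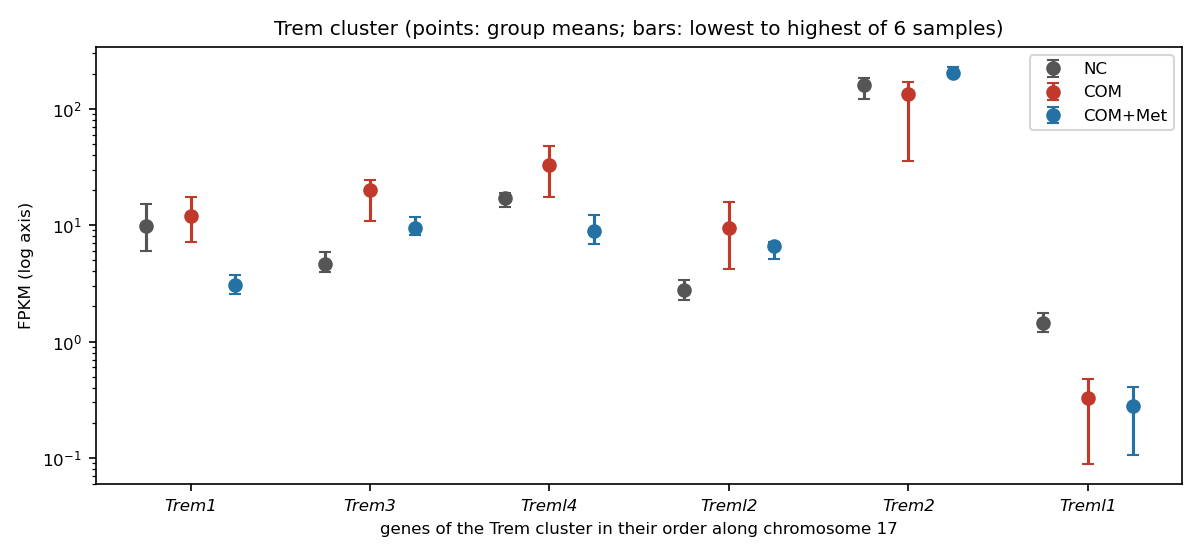
Mean FPKM of the 6 Trem genes in their order along chromosome 17 on a log axis, with bars from the lowest to the highest of 6 samples per group. Trem3 and Treml2 are lowest in NC, Trem1 and Treml4 lowest in COM+Met, and Trem2 highest in COM+Met.

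Mertk, the kinase best known for efferocytosis by resting macrophages, was 10.5 to 31.4 FPKM in NC (median 15.0), 8.62 to 11.7 FPKM in COM (median 9.84) and 8.75 to 16.1 FPKM in COM+Met (median 14.1). NC-5 (31.4 FPKM) and NC-6 (29.8 FPKM) stood above the other NC samples, which reached at most 15.3 FPKM. COM+Met-1 (8.75 FPKM) lay below the other COM+Met samples, at 13.9 to 16.1 FPKM. The mean fell from 19.0 ± 9.22 FPKM in NC to 9.93 ± 1.16 FPKM in COM, by 0.76 on the log2 scale (SE 0.24, limma adjusted p = 0.0193; exact permutation p = 0.00649), under 2-fold. Without NC-5 and NC-6 the difference was -0.36. From COM to COM+Met (13.7 ± 2.59 FPKM) it was 0.41 (SE 0.13, limma adjusted p = 0.0532; exact permutation p = 0.0195), and between COM+Met and NC it was -0.34 (SE 0.26, limma adjusted p = 0.24).

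Axl, the related kinase that is known to rise under inflammatory stimuli, was more abundant than Mertk in every sample. It was 97.4 to 118 FPKM in NC (median 104), 90.7 to 148 FPKM in COM (median 114) and 131 to 143 FPKM in COM+Met (median 136). COM+Met lay above NC without overlap, and COM overlapped with both. The level of 137 ± 4.72 FPKM in COM+Met was higher than the 107 ± 9.08 FPKM of NC by 0.37 on the log2 scale (SE 0.06, limma adjusted p = 5.58e-05), a ratio of means of 1.29 and under 2-fold. Against COM (120 ± 21.0 FPKM) the difference was 0.21 (SE 0.11, limma adjusted p = 0.242), and between COM and NC it was 0.16 (SE 0.12, limma adjusted p = 0.307), but 0.47 with size factors (limma adjusted p = 0.011). With sample weights its adjusted p was 0.0218, and without COM-4 the difference was 0.09. The ratio of Axl to Mertk was 3.60 to 9.25 in NC (median 7.26), 7.73 to 14.5 in COM (median 12.8) and 8.90 to 15.3 in COM+Met (median 9.57). NC-5 and NC-6 were the lowest of NC and COM+Met-1 the highest of its group, and COM-6 alone set the lower end in COM, where the other samples were at 12.1 to 14.5.

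Gas6, on chromosome 8 at 13465374 to 13494490, was low in every group. It was 3.28 to 5.47 FPKM in NC (median 3.97), 0.380 to 1.26 FPKM in COM (median 0.936) and 1.20 to 1.82 FPKM in COM+Met (median 1.53). NC lay above both other groups in every sample, and COM-4 (1.26 FPKM) overlapped with COM+Met. Its mean fell from 4.22 ± 0.843 FPKM in NC to 0.878 ± 0.316 FPKM in COM, a ratio of 0.208 and by 1.48 on the log2 scale (SE 0.14, limma adjusted p = 3.7e-06; exact permutation p = 0.00216). COM+Met (1.53 ± 0.261 FPKM) was above COM by 0.44 (SE 0.12, limma adjusted p = 0.0339; exact permutation p = 0.00433), under 2-fold, and was below NC by 1.04 (SE 0.11, limma adjusted p = 1.55e-06). The adjusted p against COM was below 0.05 in 15 of 22 alternative fits (up to 0.0809). The difference from NC lay close to 2-fold and lost its call in 6 of 22 alternatives, among them size factors (-0.81), quantile normalisation (-0.67), a pseudocount of 5 (-0.49) and the fits without NC-3, NC-4 or COM+Met-1 (-0.973 to -0.999), with adjusted p below 0.05 in all 22.

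Pros1, on chromosome 16 at 62854307 to 62929346, had the largest change of the 9. It was 6.44 to 9.76 FPKM in NC (median 9.17), 0.573 to 1.35 FPKM in COM (median 0.898) and 1.06 to 1.89 FPKM in COM+Met (median 1.47). No sample outside NC reached 2 FPKM. The mean of 0.925 ± 0.257 FPKM in COM was 0.108 of the 8.59 ± 1.28 FPKM in NC, and Pros1 fell by 2.32 on the log2 scale (SE 0.12, limma adjusted p = 3.51e-08; exact permutation p = 0.00216). COM+Met (1.47 ± 0.267 FPKM) was above COM by 0.36 (SE 0.11, limma adjusted p = 0.0447; exact permutation p = 0.00433), under 2-fold and with overlap, with adjusted p below 0.05 in only 8 of 22 alternative fits (up to 0.118), and below NC by 1.95 (SE 0.10, limma adjusted p = 2.25e-09). The ratio of Pros1 to Gas6 was 1.78 to 2.57 in NC (median 1.94), 0.640 to 2.26 in COM (median 1.097) and 0.833 to 1.12 in COM+Met (median 0.955). COM-6, with Gas6 at 0.380 FPKM, alone set the upper end in COM, where the other samples were at 0.640 to 1.55. Both genes averaged below 1 FPKM in COM, so these ratios are uncertain.

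Stromal cells also express GAS6 and protein S, and stromal markers were lower in COM too. The summed FPKM of 8 such markers was 21.4 to 76.5 in NC, 6.06 to 42.4 in COM and 3.25 to 8.72 in COM+Met, and in COM against NC 4 of 6 tested were called lower and 1 higher. COM-1, with a stromal sum of 42.4 within the NC range, had Gas6 at 0.661 FPKM and Pros1 at 1.03 FPKM, and NC-6, with a sum of 21.4, had 3.63 and 9.31 FPKM. From COM to COM+Met, 3 of 5 stromal markers were called lower while the means of Gas6 and Pros1 were higher. The part of these markers in the Gas6 and Pros1 results was not tested.

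Mfge8, on chromosome 7 at 79133768 to 79149060, was the most abundant transcript of the bridging ligands among the 9. At 758 ± 222 FPKM it was the most abundant of all 9 in COM+Met. It was 172 to 480 FPKM in NC (median 469), 145 to 505 FPKM in COM (median 329) and 323 to 954 FPKM in COM+Met (median 822). In COM+Met, 5 of 6 samples were at 771 FPKM or more and lay above all NC and COM samples, whereas COM+Met-1 (323 FPKM) lay inside the range of both. NC-5 (202 FPKM) and NC-6 (172 FPKM) were far below the other NC samples, at 468 to 480 FPKM. From COM (329 ± 125 FPKM) to COM+Met it rose by 1.23 on the log2 scale (SE 0.31, limma adjusted p = 0.0215; exact permutation p = 0.00866), a ratio of means of 2.31. Against NC (378 ± 148 FPKM) it rose by 1.05 (SE 0.33, limma adjusted p = 0.0115; exact permutation p = 0.0108). Neither call was stable: without COM-4 to COM-6 the first difference was 0.77 and without NC-5 and NC-6 the second was 0.60, both under 2-fold. Between COM and NC the log2 difference was -0.18 (SE 0.35, limma adjusted p = 0.672), and it turned to 0.14 with size factors and 0.03 without COM-6.

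Genes whose profiles over the 18 samples were closest to a member were found by the root mean square difference of centred log2(FPKM + 1) values over 10751 genes. Those for Trem1 included Fosl2 (0.296), a subunit of AP-1, which averaged 19.8 FPKM in NC, 21.4 FPKM in COM and 8.58 FPKM in COM+Met. For Treml4 they were an unnamed new gene model (0.245), the oxidised lipoprotein receptor Olr1 (0.273) and Pcdh7 (0.289). For Gas6 they were Dnmt3a (0.188), Zdhhc14 (0.204) and Vim (0.205), and for Pros1 Lbr (0.235), Cenpm (0.237) and Lpin1 (0.242). The closest genes to Mfge8 were farther away, with Plxnd1 at 0.446, Kctd17 at 0.449 and Rftn1 at 0.480. The group means of Trem2, Tyrobp, Mertk and Axl spanned less than 1 on the log2 scale, and no like genes were sought for them.

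Beyond the 9, 103 other genes of these pathways were listed, of which 102 were in the table. In COM against NC, 10 of 88 tested were called higher and 16 lower, or 29.5% against 17.7% of all genes. Between COM+Met and COM, 4 of 85 were called higher and 5 lower, or 10.6% against 2.22%, and in COM+Met against NC 8 of 88 were called higher and 20 lower, or 31.8% against 19.3%.

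The TREM family and Tyrobp partners, a list that includes the 4 members described above, had a median log2 change of 0.23 in COM against NC, with 2 of 13 called higher (Trem3 and Treml2) and 1 lower (Cd300lb), and -0.96 in COM+Met against COM, with 0 higher and 5 lower. The share called was 23.1% against 17.7% of all genes in the first comparison and 38.5% against 2.22% in the second. With size factors, 5 of 13 were called higher and 0 lower in COM against NC. The 5 called lower in COM+Met were Trem1, Treml4 and the DAP12-paired SIRPβ genes Sirpb1a, Sirpb1b and Sirpb1c. Sirpb1c fell from 112 ± 14.9 FPKM in COM to 35.1 ± 4.81 FPKM in COM+Met, by 1.65 on the log2 scale (SE 0.11, limma adjusted p = 5.69e-06). Sirpb1a fell by 1.37 and Sirpb1b by 1.23, the latter by 0.78 and so not called without COM-4 to COM-6. These 3 genes are near copies of each other, so how the reads were divided among them is uncertain. Unlike Trem1, Sirpb1a was higher in COM-4 to COM-6 (46.2 to 62.5 FPKM) than in COM-1 to COM-3 (35.1 to 39.3 FPKM). Of 19 signalling genes below Tyrobp, 1 was called higher in COM against NC (Malt1) and 2 lower (the docking proteins Dok2 and Dok3), with a median of -0.36. That was 15.8% called against 17.7% of all genes, whose median was -0.27, so this list lay near the background. Without COM-6, 0 were called lower, and with sample weights, without NC-5 and NC-6 or without COM-4 to COM-6, 0 of the 19 were called, while size factors gave 3 higher and 1 lower. Dok2 was 3.17 FPKM in COM-6 and 12.7 to 40.5 FPKM in the other COM samples. For COM+Met against COM, limma called 0 of the 19, near the background of 2.22% of all genes. At an unadjusted p below 0.05 there were 6, for which the share of all genes is not given here. At most 1 was called in any alternative fit.

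Among receptors for apoptotic cells, of which Mertk and Axl are members, the list split in direction: 3 of 14 rose and 4 fell in COM against NC, and the median log2 change was -0.52. That was 50.0% called against 17.7% of all genes. Cd14, a lipopolysaccharide co-receptor that also tethers apoptotic cells, rose from 64.7 ± 38.8 FPKM in NC to 400.5 ± 95.8 FPKM in COM (log2 change 2.86, limma adjusted p = 0.000141). Scarf1, a C1q-binding scavenger receptor, rose from 4.51 ± 1.32 to 27.5 ± 9.37 FPKM, and Stab1, a phosphatidylserine receptor, from 1.79 ± 1.21 to 10.4 ± 2.86 FPKM. For Scarf1, COM-6 was at 8.59 FPKM and the other COM samples at 29.9 to 33.1 FPKM. Cd300a, an inhibitory receptor for phosphatidylserine, fell from 45.4 ± 16.8 to 4.40 ± 0.985 FPKM (log2 change -3.05, limma adjusted p = 4.14e-07). Cd36, Scarb1 and the integrin Itgb3 fell as well, although Scarb1 was not called with sample weights, at -0.62, or without COM-4 to COM-6. From COM to COM+Met, Itgb3, part of the integrin that MFG-E8 binds, rose from 2.33 ± 0.636 to 7.41 ± 0.591 FPKM without overlap (log2 change 1.36, limma adjusted p = 5.66e-05). With a pseudocount of 5 the change was 0.76 and not called, and COM+Met was below NC by 0.46. The αv integrin gene Itgav fell from COM to COM+Met by 0.45 (limma adjusted p = 0.000819), under 2-fold. Itgb5 differed by 0.38 (limma adjusted p = 0.0717). Cd36 fell by 1.41 and Olr1 by 1.33.

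Bridging and find-me factors, which include Gas6, Pros1 and Mfge8, had a median log2 change of -0.85 in COM against NC, with 4 of 12 called lower (Anxa1, Gas6, Lgals3 and Pros1) and 1 higher (Thbs1). That was 41.7% called against 17.7% of all genes. Without COM-6, 0 were called higher, and without NC-5 and NC-6, 7 were called lower and 0 higher. Lgals3, or galectin-3, was the most abundant and fell from 2172 ± 277 to 701.5 ± 196 FPKM, with COM-6 at 313 FPKM and the other COM samples at 690 to 831 FPKM. For COM+Met against COM the median was 0.44, with 4 of 12 called higher, Mfge8 and the 3 chains of C1q, which opsonises apoptotic cells, and 0 lower. That was 33.3% called against 2.22% of all genes. C1qb was 1.11 to 20.6 FPKM in NC, 2.77 to 6.98 FPKM in COM and 5.08 to 29.2 FPKM in COM+Met, and rose by 1.96 on the log2 scale from COM to COM+Met (SE 0.36, limma adjusted p = 0.00384). C1qa rose by 1.82 and C1qc by 1.75. As for Mfge8, COM+Met-1 was the lowest COM+Met sample for all 3 chains, with C1qb at 5.08 FPKM against 22.0 FPKM or more in the others, and NC-5 and NC-6, the latter at 1.11 FPKM, were the lowest in NC.

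The engulfment machinery had 2 of 23 genes called higher and 3 lower in COM against NC, with a median of -0.26. That was 21.7% called against 17.7% of all genes, whose median was -0.27, so this list lay near the background. The lipid exporter Abca1 rose from 8.12 ± 4.58 to 69.4 ± 22.0 FPKM (log2 change 3.11, limma adjusted p = 3.6e-05) and stayed at 61.9 ± 4.39 FPKM in COM+Met, while Elmo2, a subunit of the Rac activator, fell from 35.9 ± 9.06 to 10.7 ± 2.49 FPKM. Of 8 nuclear receptors and related factors, Pparg and Nr4a1 were called lower and 0 were called higher, and their median was -0.57. Pparg, which promotes expression of uptake genes, fell from 12.9 ± 6.70 to 0.651 ± 0.440 FPKM (log2 change -2.997, limma adjusted p = 2.97e-06) and was 0.326 ± 0.108 FPKM in COM+Met. Like Gas6 and Pros1, it averaged below 1 FPKM in COM and passed the filter through NC. There NC-5 (20.2 FPKM) and NC-6 (22.8 FPKM) stood above the other NC samples, at 7.57 to 9.33 FPKM. Of 8 genes for receptor shedding and do-not-eat-me signals, 1 was called higher (Pilra) and 2 lower (the sheddase Adam10 and its inhibitor Timp3), or 37.5%, with a median of 0.10. Between COM+Met and COM, limma called 0 of 23 engulfment genes, 0 of 6 nuclear receptors and 0 of 7 shedding genes. Of all genes only 2.22% were called in this comparison, so these lists lay near the background. An unadjusted limma p below 0.05 was reached by 8, 1 and 2 of them, for which the share of all genes is not given here. At most 2, 1 and 0 were called in any alternative fit.

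Relative to NC, COM+Met had the calls below by list, where 19.3% of all genes were called, 5.66% higher and 13.6% lower. The share called was highest for receptors for apoptotic cells, at 57.1%, followed by bridging factors and the TREM family (30.8%). It lay near the background for signalling (26.3%), engulfment genes (21.7%), and nuclear receptors and shedding genes, with 2 of 8 each. The TREM family had 1 of 13 called higher (Treml2) and 3 lower, signalling 2 of 19 higher and 3 lower, and receptors for apoptotic cells 3 of 14 higher and 5 lower. Cd36 was 25.1 ± 2.90 FPKM in COM+Met against 171 ± 66.1 FPKM in NC, and Cd300lb, an activating DAP12-paired receptor for phosphatidylserine, 9.06 ± 1.29 against 45.6 ± 11.6 FPKM. For Cd36, NC-5 (260 FPKM) and NC-6 (252 FPKM) lay above the other NC samples, at 121 to 133 FPKM. The adaptor Dok2 fell by 2.36 on the log2 scale (limma adjusted p = 5.08e-09). Bridging factors had 2 of 12 called higher and 4 lower, engulfment genes 1 of 23 higher and 4 lower, nuclear receptors 0 of 8 higher and 2 lower, and shedding genes 0 of 8 higher and 2 lower. Of those called lower, Pparg, Nr4a1 and Timp3 averaged below 1 FPKM in COM+Met and passed the filter through NC. Higher calls depended on the libraries and the scaling. Without NC-5 and NC-6, 0 were called higher and 4 lower in each of the TREM family, signalling and bridging lists. With size factors, the bridging list had 3 higher and 2 lower, signalling 3 higher and 2 lower, and shedding 2 higher and 2 lower. Among the engulfment genes, the mitochondrial uncoupler Ucp2 fell from 177 ± 12.6 to 40.2 ± 4.66 FPKM (log2 change -2.12, limma adjusted p = 1.11e-10).

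**Figure D5:**
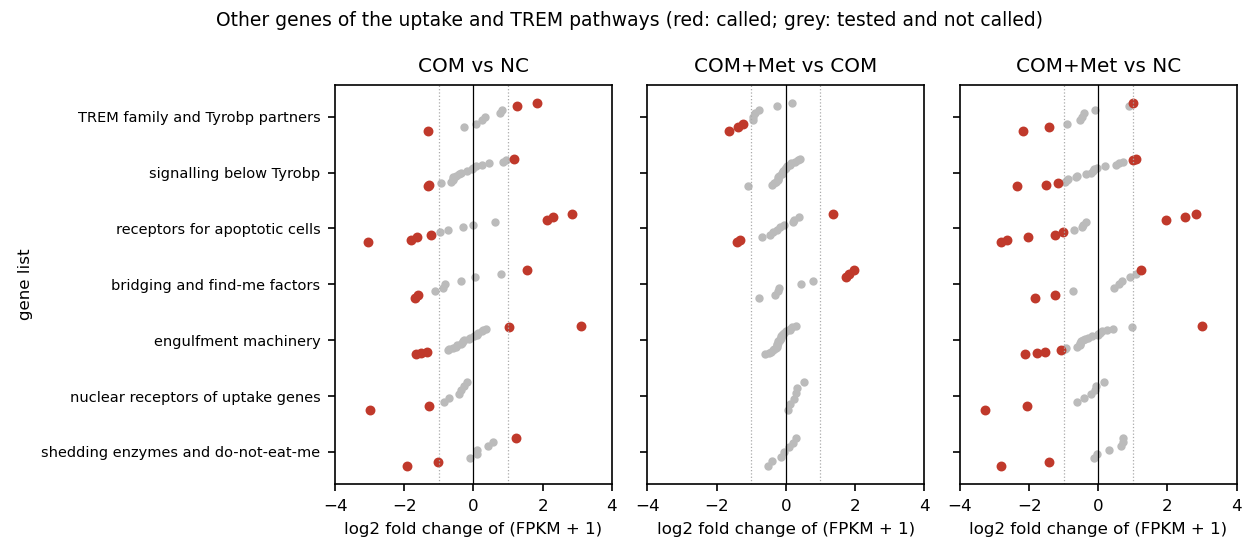
Log2 fold change of FPKM + 1 for each tested gene of the 7 pathway lists without the 9 members, in the 3 comparisons, with red points for called genes and dotted lines at 2-fold. In COM+Met against COM, red points occur in the TREM family (lower), the receptors (in both directions) and the bridging factors (higher).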

How the data were processed

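RNA-seq libraries were made from total RNA of BMDMs, with 6 samples for every group (NC, COM, COM+Met). The authors deposited 1 table of FPKM values for 25926 genes. Per the submitters' processing notes Bowtie 0.12.2 is listed as a tool and mm8 and mm9 as builds, with no role for any of them. How FPKM were computed, and on which annotation, is not given in the sources used here. No counts are in the deposited table, and its low values did not yield whole reads, so the depth of each sample is unknown and no counting error can be given. FPKM summed to 380731 to 449186 per sample. Columns were assigned by the sample labels, and 0 columns were left out.

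A gene entered a comparison if its FPKM averaged 1 or more across the 12 samples involved. The values, as log2(FPKM + 1), were then compared by limma 3.58.1 (lmFit, eBayes with trend; R 4.3.3), and p-values were adjusted by Benjamini-Hochberg across every gene tested. A gene was called at adjusted p below 0.05 and at least 2-fold change. The code was tested on simulated data. No batch or date was given in the labels. All 9 members were named in each comparison, with the 12 pathway genes of largest change among those called, the counts of each list, and the 3 genes with the closest profile to each member that spanned at least 1 on the log2 scale. Some of these closest genes are not reported here. Where fewer than 12 were called, all were eligible. The members and lists were chosen with earlier results of these data known. Other pseudocounts, filters, scalings, a replicate block, a fit of all 18 samples, sample weights and fits without single or several samples were tried. Gene positions came from GENCODE M21 (GRCm38) and promoter windows from RefSeq (GRCm38.p6), not from the builds of the files. The promoter motifs were settled after a search with other interferon and NF-κB patterns had been seen, of which the NF-κB pattern, a looser one, had matched Mertk, Axl and Pros1.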

Additional observations from a re-analysis of the deposited data

Results flagged for a closer look

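Each of the 9 genes was examined in each group for a highest or lowest sample that stood apart. Dixon's ratio of its gap to the nearest sample over the range of the group was taken on log2(FPKM + 1). It was set against its critical value for 6 samples. Of 27 sets of 6 values, 4 passed it, where chance alone passes about 1 set in 20. Trem2 in COM had a ratio of 0.890, with COM-6 at 35.4 FPKM and the other samples at 144 to 171 FPKM. Tyrobp in COM had a ratio of 0.883, with COM-6 at 158 FPKM and the others at 465 to 535 FPKM. Mertk in COM+Met had a ratio of 0.754, with COM+Met-1 at 8.75 FPKM, and Mfge8 in COM+Met had a ratio of 0.803, with the same sample at 323 FPKM.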

How the results depend on the processing

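Counts of called genes moved most with the pseudocount and with the libraries that stood apart. In COM against NC, 1926 genes were called, 980 with a pseudocount of 5 and 1727 to 2073 with a replicate left out. In COM+Met against COM, 230 were called, 370 with a pseudocount of 0.1, 90 with a pseudocount of 5, 719 with sample weights, 771 without COM-4 to COM-6 and 182 to 300 with a replicate left out. In COM+Met against NC, 2078 were called, 1117 with a pseudocount of 5 and 2015 to 2136 with a replicate left out. Of the 9 genes, 2, 3 and 4 were called in these comparisons. With a pseudocount of 5 there was 1 in COM against NC, since Gas6 was lost, and 2 in COM+Met against NC. With a filter of 5 FPKM there were 0 in COM against NC, since Gas6 and Pros1 were not tested. Higher calls as a share of all calls moved from 33.9% to 51.3% with size factors and 48.4% with quantile normalisation in COM against NC, and from 29.4% to 46.0% and 45.6% in COM+Met against NC. Of the 9 genes, the direction turned for Trem1 in COM against NC (-0.0536 without NC-5 and NC-6), Mfge8 in COM against NC (0.14 with size factors, -0.382 to 0.0348 with a replicate left out, positive only without COM-6, and 0.27 without COM-4 to COM-6), Tyrobp in COM+Met against COM (-0.0051 without COM-4 to COM-6) and Mertk in COM+Met against NC (0.0496 with sample weights and 0.0503 without NC-5 and NC-6). The causes were not tested. Mfge8 in COM+Met against COM lost its call in 7 of 23 alternatives, with adjusted p between 0.000272 and 0.0843, while Trem1 and Treml4 stayed called in all 23. Depth is unknown and could not be set against these values.

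Replicate numbers did not pair the samples: same-numbered samples deviated from their group means with correlations of -0.222 to 0.0569, and 0 of 6 numbers matched best with their own in each comparison. With that number as a block, 1920, 202 and 2080 genes and 2, 2 and 4 of the 9 were called in the 3 comparisons.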
